A study of Mus musculus with 2 samples.

Results

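Cluster 11 (C11) was a small group of spleen cells that the study annotated as a mature cDC2b cluster and that carries Sirpa, Cd14 and Ccr2 as its markers here. Its members were every cell with cluster number 11 in the deposited cell table, 439 of 24343 cells in 20 clusters. They made up 188 of 12224 WT cells (1.54%, exact 95% interval 1.33 to 1.77) and 251 of 12119 Batf3-/- cells (2.07%, 1.83 to 2.34). The order rested on the denominator, since without the cDC1 clusters the shares were 2.17% and 2.22%, and of C2 and C11 together 16.6% and 14.2%. The cells came from spleens of female mice aged 8 weeks, either C57BL/6 (WT) or deficient in the transcription factor Batf3 (Batf3-/-) in every cell of the animal. For each genotype the splenocytes of 6 mice were pooled, depleted of T and B cells, sorted as live MHCII+ CD11c+ cells and run as 1 CITE-seq library, which counts transcripts as unique molecular identifiers (UMIs) and bound antibodies as tags. The experiment was performed once, so there is no biological replicate, no test was made, and all intervals below cover counting error only.

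Conventional dendritic cells of type 2 (cDC2) take up antigen and present it to CD4+ T cells, and their cDC2b subset shares many transcripts with monocytes. Red pulp macrophages of the spleen clear aged red cells, break down haem with Hmox1 and export the iron through Slc40a1 (ferroportin), under the transcription factor Spic. Many tissue macrophages also make C1q, the first component of the classical complement pathway, from the genes C1qa, C1qb and C1qc. C11 is described below beside cluster 2 (C2), the other cluster annotated as cDC2b, and cluster 15 (C15), annotated as monocytes. C2 held 942 WT and 1520 Batf3-/- cells, and C15 held 145 and 52. The clusters were built from these transcripts, so levels that set them apart are descriptions and not findings of a comparison.

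The median depth of C11 cells was ordinary. They held 799 to 32393 UMIs each, with a median of 8992 in WT and 9577 in Batf3-/- cells, against 8369.5 and 9398.5 in C2 and 6151 and 8056 in C15. Mitochondrial genes took 4.04% of the UMIs in C11, 3.38% in C2 and 3.59% in C15. The doublet caller Scrublet marked 8 C11 cells (1.82%), 7 C2 cells (0.284%) and 13 C15 cells (6.60%), and 2 C11 cells carried a barcode found in both libraries.

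The genes that stood furthest above other clusters in C11 were those of complement C1q. In all, 18 genes reached at least 50 UMIs per 1000000 UMIs (CPM) in C11 and at least 1.5 times the level of every other cluster of 50 cells or more. C1qa stood at 986 CPM in WT and 737 CPM in Batf3-/- C11 cells, C1qb at 931 and 765, and C1qc at 509 and 400.3. With libraries pooled, the next cluster was C19 for each of the 3 genes, and C11 was 32.2 times higher for C1qa, 32.0 times for C1qb and 31.3 times for C1qc. Fcna, a collagen-like lectin of the innate defence, stood at 75.2 CPM and 31.7 times its next cluster. Cd5l, a secreted protein of tissue macrophages, stood at 55.0 CPM, 11.6 times higher than elsewhere. Slc40a1 reached 127 CPM with a ratio of 4.87, Hmox1 388 CPM with 3.19 and Spic 98.0 CPM with 1.89. Axl, a receptor for apoptotic cells, reached 114 CPM, 6.14 times the C2 level. Others were Fam213b, Clec4n, Ms4a7, Nr1h3, Lyz1, Il18, Acp2 and Trf, with ratios from 1.62 for Trf to 5.41 for Fam213b. Of the 18 genes, 9 belonged to a list of 20 macrophage genes and 9 to the 153 genes of a published cDC2b list, and 10 genes are in both of those lists, so the 2 counts are not separate evidence. The count was 28 genes in the WT library alone and 10 among C11 cells labelled DC, without Spic.

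The 3 C1q genes lie side by side on the minus strand of mouse chromosome 4 in GRCm38, within 18675 bases: C1qb at chr4:136880129-136886187, C1qc at chr4:136889804-136893065 and C1qa at chr4:136895917-136898803. The bases just upstream of 2 of them are shown because these genes lead the C11 profile. The stretches are the parts of RefSeq windows (GRCm38.p6) that lie upstream of every annotated start, read 5′ to 3′ on the gene's strand. C1qb is from chr4:136886201-136886450 and C1qc from chr4:136893066-136893164. Capitals mark GAGGAA, a sequence bound by the ETS factor PU.1, or its reverse complement TTCCTC.
C1qb: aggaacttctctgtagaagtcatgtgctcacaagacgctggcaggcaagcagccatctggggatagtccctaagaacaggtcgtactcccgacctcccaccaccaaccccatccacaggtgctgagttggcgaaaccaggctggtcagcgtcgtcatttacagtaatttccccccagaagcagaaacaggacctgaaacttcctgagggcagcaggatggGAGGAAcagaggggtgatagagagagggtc
C1qc: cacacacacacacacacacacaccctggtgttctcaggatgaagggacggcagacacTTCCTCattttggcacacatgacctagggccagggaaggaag
Each stretch held the motif 1 time, C1qb as GAGGAA and C1qc as TTCCTC. Of all 32851 RefSeq promoter windows, 9289 (28.3%) held it on either strand. Those windows run from 250 bases before the start to 50 after it, so they are longer than the stretches shown. Of the 18 genes highest in C11, 11 had a window, 13 windows in all, and 7 of the 13 windows held the motif. A match of letters is a description of the sequence and not evidence of binding.

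**Figure D1:**
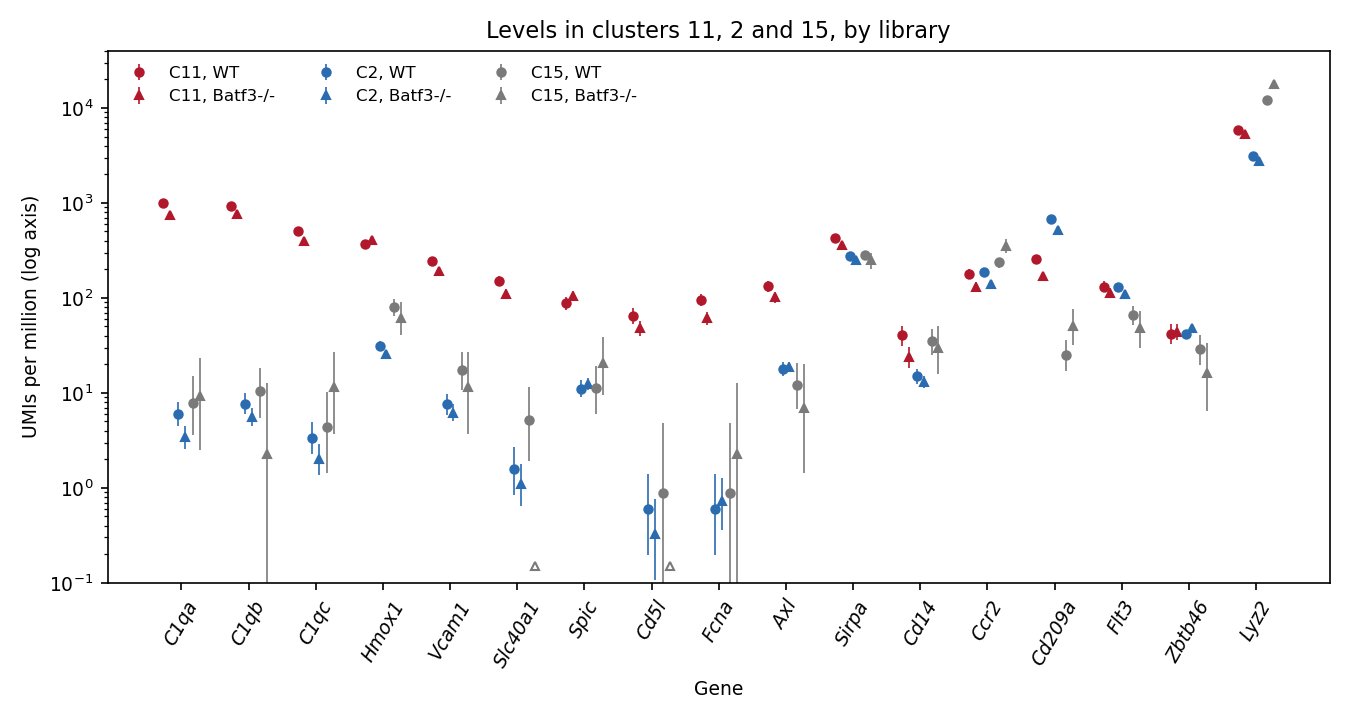
Level of named genes (CPM on a log axis, from summed UMIs) in C11, C2 and C15, with WT and Batf3-/- libraries as separate points and exact Poisson 95% intervals as bars. Hollow triangles mark 0 UMIs and have no place on the axis. C1qa is at 986 and 737 CPM in C11 and at no more than 9.17 CPM in either other cluster, whereas Flt3 is at 131 and 112 CPM in C11 and at 129 and 110.4 in C2.

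Of the label markers, Sirpa stood higher in C11 than in C2 and C15, Cd14 higher than in C2 and Ccr2 in neither. Sirpa, the inhibitory receptor CD172a that marks cDC2, stood at 426 CPM in WT and 364 in Batf3-/- C11 cells, against 276 and 249 in C2 and 281 and 248 in C15, and its pooled level was first of 20 clusters. Ccr2, the chemokine receptor that monocytes use to leave the marrow, stood at 179.8 and 131 CPM in C11, 189 and 140.1 in C2 and 236 and 353 in C15, so C11 as a whole did not exceed C2 in either library. The level was uneven within C11. With libraries pooled, Ccr2 stood at 307 CPM in the 181 C11 cells that resembled C2, above the 157 of C2 itself. In the 117 that resembled C0 it stood at 2.58, and in the 25 that resembled C3 at 66.8, below the 153 of C3. Cd14, the co-receptor for bacterial lipopolysaccharide, stood at 40.2 CPM (72 UMIs) and 23.8 CPM (61 UMIs), and with libraries pooled it stood at 30.6 CPM in C11, 13.7 in C2 and 33.5 in C15. At least 1 Cd14 UMI was found in 85 of 439 C11 cells (19.4%), in 10.4% of C2 cells and in 12.2% of C15 cells. When each cell was thinned to 1000 UMIs, a depth that 8 C11 cells did not reach, the share was 2.55% in C11 (11 of 431 cells, 1.28 to 4.52), 1.22% in C2 and 2.54% in C15. As a background, the share was 5.33% in the cDC1 cluster C4, 1.29% in C13, annotated as lymphoid cells, and 0.668% in C0, and after thinning 0.403%, 0.258% and 0.131%. Most C11 cells thus had no Cd14 UMI, and the cluster is called by its number here.

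Against C2, C11 was higher in macrophage genes and close to it in most others. A gene was compared where it averaged 20 CPM and had 20 UMIs in each library, and it was called where the log2 ratio passed 1 in size with the same sign in both libraries. Of 5160 genes, 91 were higher in C11 (1.76%) and 10 lower (0.194%), 101 in all (1.96%), with a median log2 ratio of 0.08 and 90% of ratios between -0.32 and 0.66. The ratios of the 2 libraries correlated with r = 0.834 across genes, which are not independent replicates. With the WT library alone 153 genes were called, and with DC-labelled C11 cells alone 160.

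Complement, iron and secreted macrophage genes led the ratios apart from the globins. C1qa stood at 986 and 737 CPM in C11 against 6.03 and 3.46 in C2, a log2 ratio of 7.35 in WT and 7.74 in Batf3-/- cells. The level of C1qa was thus 193 times higher with libraries pooled, C1qc 178 times and C1qb 132 times. Slc40a1 stood at 149 and 111 CPM against 1.57 and 1.11, 99.9 times higher. Hmox1, which opens the haem ring, stood at 366 and 403 CPM against 31.0 and 25.6, 14.1 times higher. Vcam1, an adhesion molecule of splenic macrophages, stood at 242 and 192 CPM against 7.60 and 6.20, 31.8 times higher. It was not confined to C11, since with libraries pooled it stood at 212 CPM in C11, 151 in the mature cDC1 cluster C12 and 56.8 in C1. No library of C2 came near either C11 library for these genes. Cd5l was 129.8 times higher, Fcna 111 times, the growth factor Igf1 83.6 times and the protease inhibitor Slpi 49.9 times. The transcription factors Maf and Spic were 19.6 and 8.20 times higher, and the lipid carrier Apoe 13.3 times.

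Of the 20 genes in the macrophage list, 14 passed the level filter, and 13 of the 14 were called higher in C11, beside 1.76% of all genes. The median log2 ratio of the 14 was 4.05, beside 0.08 for all genes. Genes that are high in 1 cluster pass such a filter through that cluster, so the count describes the list and does not support it. Adgre1 (F4/80), a defining antigen of red pulp macrophages, was the gene of the 14 not called, at 110.0 and 113 CPM in C11 and 101 and 97.2 in C2. Of the genes under the filter, Mertk stood at 10.3 CPM and Cd163 at 11.7 CPM in C11. The summed level of the whole list was 5437 CPM in WT and 4267 in Batf3-/- C11 cells. Pooled, it was 4749 CPM in C11, against 65.6 in the lowest cluster (C6), 317 in C2 and 2166 in C15, where Apoe alone stood at 1739 and 1878 CPM.

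Some genes of maturation were also higher than in C2, among them Ccr7. Ccr7, the receptor that guides mature dendritic cells, stood at 122 and 131 CPM against 37.8 and 42.5, 3.12 times higher, and 293 of its 555 UMIs in C11 were in 42 cells that resembled C1. In the 181 cells that resembled C2 it stood at 21.1 CPM, below the 40.9 of C2 itself. With libraries pooled it was at 128 CPM in C11. In C1, C8 and C12, which the study also annotated as mature, it was at 904, 911 and 1954 CPM. Fscn1, which bundles actin in mature dendritic cells, stood at 92.7 and 90.3 CPM against 10.3 and 16.8, and Socs2, a brake on cytokine signalling, at 71.5 and 61.0 against 5.43 and 7.89. In the maturation and homing list 10 of 20 compared genes were called higher and 0 lower, with a median of 1.15, beside 1.76% higher over all genes. Against C15 0 of 20 were called, beside 8.04% over all genes. In a separate list of chemokine receptors and homing genes 1 of 8 compared genes, Ccr7, was called higher than in C2 and 0 lower, with a median of 0.26. Lysosomal and lipid genes gave 6 of 24 higher and 0 lower with a median of 0.49, beside the same 1.76%, among them the protease Ctsd at 227 and 218 CPM against 40.3 and 39.2 and the oxysterol receptor Nr1h3 at 86.6 and 85.2 against 8.21 and 9.92.

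Genes of dendritic cell identity and cDC2b gave different counts by list, and the cDC2b lists depended on which C11 cells were taken. Flt3, the growth factor receptor of dendritic cells, stood at 131 and 112 CPM in C11 and 129 and 110.4 in C2. Zbtb46, a transcription factor of conventional dendritic cells, stood at 41.9 and 44.2 against 41.7 and 48.4. These are averages over unlike cells. With libraries pooled, the 181 C11 cells that resembled C2 had Flt3 at 82.4 CPM and Zbtb46 at 26.8, below the 117 and 46.1 of C2 itself. In the cells that resembled C0, C1 and C3, Flt3 stood at 137, 143 and 274 CPM and Zbtb46 at 68.0, 64.8 and 50.9. In the dendritic cell identity list 0 of 18 compared genes were called, with a median of -0.11, a count near the background of 1.96%. Cd209a, a lectin of cDC2b, was lower at 257 and 172 CPM against 669 and 524, 2.77 times. The other genes called lower were Ltb4r1, Ifit1, Ahnak, Anxa1, Ifit3, Ace, Lgals1, Lyl1 and Olfm1, of which the leukotriene receptor Ltb4r1 stood at 16.8 and 5.86 CPM against 74.8 and 26.5. In the published cDC2b list 16 of 54 compared genes were higher and 1 lower, but C1qa, C1qb, C1qc, Axl, Hmox1, Mrc1, Spic and Vcam1 were among the 16. In a separate list of 12 textbook cDC2b genes the count was 0 higher and 1 lower, Cd209a, with a median of -0.02, also near the background. A published cDC2a list gave 3 of 12 compared genes higher and 0 lower, with a median of 0.65. A list of textbook cDC2a genes gave 1 of 8 higher and 0 lower, with a median of 0.36, beside 1.76% higher over all genes. DC-labelled C11 cells alone were also set against all C2 cells, of which 864 (35.1%) were labelled Monocytes. The median of the textbook cDC2b list was then -1.11, that of the published cDC2b list -0.40 in place of 0.37, and that of the dendritic cell identity list 0.15. The part of the C2 cells labelled Monocytes in these medians was not tested. The lists of lipopolysaccharide sensing (0 of 9), NADPH oxidase (0 of 6), NF-kB (0 of 23) and cytokine genes (0 of 13) held no called gene, which at 1.96% called over all genes is the background rate for lists of this size, and the interferon list held 0 higher and 2 lower of 22, Ifit1 and Ifit3.

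**Figure D2:**
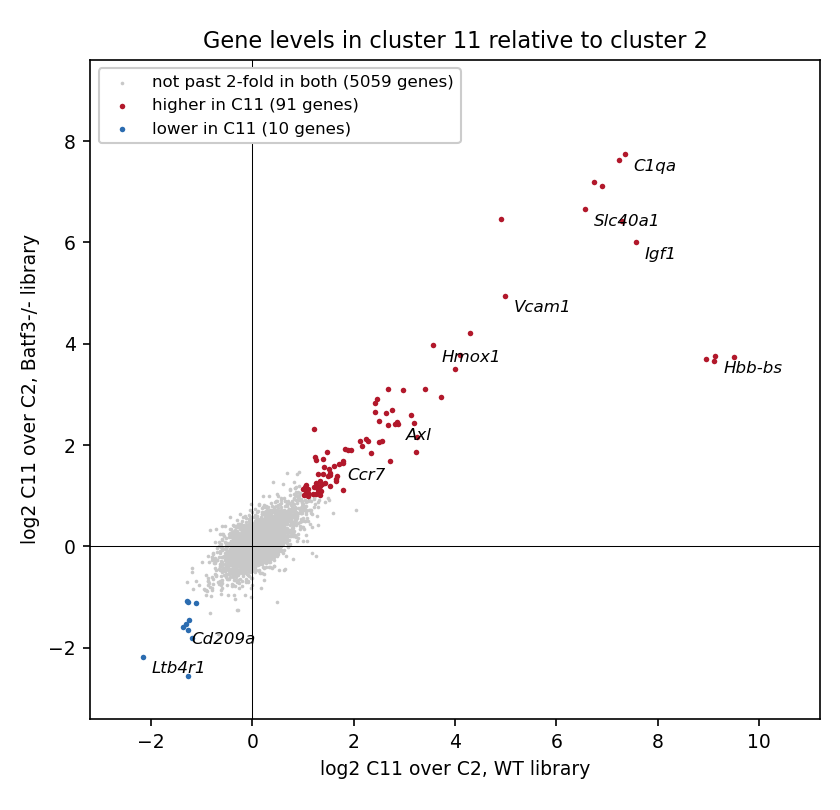
Log2 ratio of C11 over C2 in the WT library (x axis) and in the Batf3-/- library (y axis) for each gene compared, with called genes in colour and some of them named. Of 5160 genes, 91 lie past 1 on both axes and 10 below -1 on both, and the C1q genes lie near 7 on both.

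Against C15, C11 was lower in genes of neutrophils and monocytes and higher in genes of antigen presentation. By SingleR label C15 held 175 Monocytes, 14 DC, 7 Neutrophils and 1 Stem cells cell, and the part of the 7 and 14 in the contrasts was not tested. Of 5451 genes 162 were higher (2.97%) and 276 lower (5.06%), 438 in all (8.04%), with a median log2 ratio of -0.06, and 783 were called in the Batf3-/- library alone. Camp and Ngp, antimicrobial proteins of neutrophil granules, had 0 UMIs in C11 in both libraries and 1732 and 5516 CPM, and 1041 and 1371 CPM, in C15. Against a floor of 3 counts over the cluster, Camp was at least 4021-fold lower in C11 and Ngp at least 1641-fold. S100a9, a calcium-binding protein of the same cells, stood at 44.7 and 0 CPM against 5451 and 11428. In the monocyte list 24 of 31 compared genes were lower and 0 higher, with a median of -2.02. In the neutrophil list 6 of 6 compared genes were lower, beside 5.06% lower over all genes. Genes high in C15 pass the level filter through C15, so these counts describe the lists. Fn1, the matrix protein fibronectin, stood at 9.49 and 0.391 CPM against 148 and 139.9, and Ace, an enzyme of patrolling monocytes, at 22.3 and 13.3 against 373 and 296. Lyz2, the lysozyme of myeloid cells, was lower at 5860.0 and 5265 CPM against 12098 and 17737. Its level was uneven within C11. With libraries pooled, it stood at 11074 CPM in the 181 C11 cells that resembled C2 and 15247 in the 24 that resembled C15. In the 117 that resembled C0 it stood at 59.4, and in C15 itself at 13652.

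The genes higher than in C15 joined the macrophage genes with those of antigen presentation. H2-Aa, a chain of the class II molecule that loads peptide for T cells, stood at 10209 and 10492 CPM in C11 against 3894 and 3589 in C15. In the dendritic cell identity list 11 of 17 compared genes were higher and 0 lower, with a median of 1.18. Apart from Flt3, Kmo and Bcl11a, the 11 were class II presentation genes. These were Cd74, Ciita, H2-Aa, H2-Ab1, H2-DMa, H2-DMb2, H2-Eb1 and H2-Oa, so the count mostly describes class II presentation. In the macrophage list 12 of 14 were higher and 0 lower, with a median of 3.58. Over all genes 2.97% were higher, with a median of -0.06. Macrophage genes high in C11 pass the level filter through C11, so that count describes the list and does not support it. C1qa stood 102 times higher than in C15 and Vcam1 13.4 times, whereas Apoe was not called, at 1401 and 996 CPM in C11. C15 in Batf3-/- held 52 cells, so its levels there are the least precise of the 3 clusters.

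C1q transcripts were found in almost every C11 cell. At least 1 UMI of the 3 genes was found in 434 of 439 cells (98.9%, 97.4 to 99.6), in 186 of 188 WT and 248 of 251 Batf3-/- cells. The share was 4.91% in C2, 6.60% in C15 and 1.40% in the cDC2a cluster C0. After thinning to 1000 UMIs it was 66.1% in C11 and 0.975% in C2. Per cell, C1q UMIs ran from 0 to 279 with a median of 11 in WT and 8 in Batf3-/- cells, and 49.4% of C11 cells held 10 or more, against 0.284% of C2 cells. Other macrophage genes were found in fewer cells. A Slc40a1 UMI was found in 50.3% of C11 cells and 1.02% of C2 cells, a Vcam1 UMI in 63.1% and 4.87%, and a Hmox1 UMI in 76.5% and 12.3%.

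**Figure D3:**
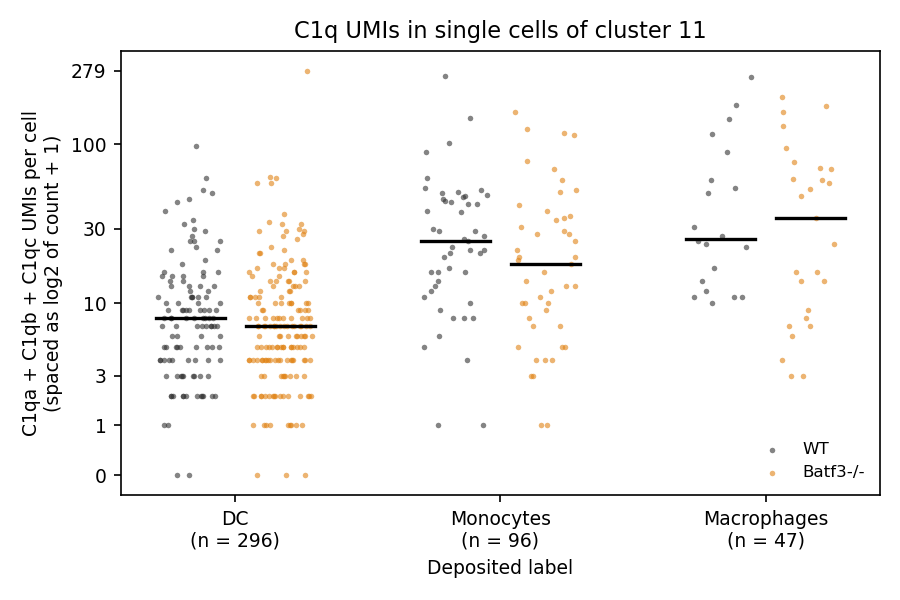
C1q UMIs per cell (C1qa, C1qb and C1qc summed) in each C11 cell (points, on an axis spaced as the log2 of the count plus 1), by deposited label and library, with the median as a bar. With libraries pooled the medians are 7 for DC, 21.5 for Monocytes and 27 for Macrophages cells.

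C11 was not uniform. The deposited SingleR labels, which match each cell to reference immune profiles, called 296 of its cells DC (67.4%; 119 WT and 177 Batf3-/-), 96 Monocytes (21.9%; 49 and 47) and 47 Macrophages (10.7%; 20 and 27), whereas C2 had 1592 DC, 864 Monocytes and 1 Macrophages cell. The finer labels of the same method called 84 of the 439 cells (19.1%) macrophages, 15 of them red pulp macrophages (MF.RP). Labels were given from these transcripts, so levels that differ between labels follow in part from them and are a description. C1q was found under each of the broad labels, in 291 of 296 DC, 96 of 96 Monocytes and 47 of 47 Macrophages cells. C1qa ran from 436 CPM in DC to 1359.9 in Monocytes and 3073 in Macrophages cells. The iron exporter Slc40a1 stood at 135, 78.7 and 195 CPM in the same order, and Hmox1 at 384, 242 and 851. Cd5l stood at 59.2, 36.3 and 70.2 CPM. The label markers were not shared evenly either. Ccr2 stood at 58.9 CPM in DC, 415 in Monocytes and 232 in Macrophages cells, Cd14 at 16.0, 57.0 and 88.5, and Sirpa at 349, 485 and 485.

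Flt3 and Kit were highest in the cells labelled DC. Flt3 stood at 149 CPM in DC, 60.1 in Monocytes and 24.4 in Macrophages cells, and Kit, the stem cell factor receptor, at 109, 29.0 and 3.05. Ccr7 stood at 175, 15.5 and 12.2 CPM and Fscn1 at 126, 9.32 and 6.10, both highest in DC cells. Both kinds of gene were found in single cells. At least 1 UMI of Vcam1, Slc40a1, Spic, Hmox1, Cd5l or Fcna together with at least 1 of Flt3, Zbtb46, Kit or Dpp4 was found in 343 of 439 C11 cells (78.1%, 74.0 to 81.9), against 19.4% in C2, 22.8% in C15 and 7.56% in C0. Taken apart, the first set was found in 94.8% of C11 and 21.6% of C2 cells and the second in 82.2% and 92.8%, so the joint share differed between C11 and C2 through the first set. The first set was also found in 34.5% of C1 cells, and Vcam1 by itself in 25.6% of them. Thinned to 1000 UMIs, the shares in C11 were 54.1% for the first set and 32.9% for the second. By label the joint share, not thinned, was 267 of 296 DC (90.2%), 62 of 96 Monocytes (64.6%) and 14 of 47 Macrophages cells (29.8%). Macrophages cells had a lower median depth, 7981 UMIs, against 9417 in DC and 9484 in Monocytes cells, and some held only 799 to 1618. The part of depth in this order was not tested. Between labels, C1qa per C1qb stayed between 0.851 and 1.07, whereas C1qa per Slc40a1 varied, with 3.31 C1qa UMIs per Slc40a1 UMI in WT DC cells and 3.18 in Batf3-/- DC cells, 14.5 and 23.0 in Monocytes and 10.0 and 31.6 in Macrophages cells. Whether these transcripts were made in the cell, taken up with another cell or cell fragment, came from a second cell in the droplet or were free RNA was not tested.

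With the C11 genes set aside, C11 cells resembled several other clusters. Each cell was assigned to the closest of the other 19 clusters by the likelihood of its UMIs, leaving out 85 genes that were in the macrophage list or higher in C11 than elsewhere. C2 was closest for 181 cells (41.2%), C0 for 117 (26.7%), C1, a cluster of Ccr7-expressing cDC2, for 42 (9.57%), C3 for 25 (5.69%) and C15 for 24 (5.47%). By genotype, C2 was closest for 77 of 188 WT cells (41.0%) and 104 of 251 Batf3-/- cells (41.4%). C3 was closest for 3.19% (1.18 to 6.82) of WT and 7.57% (4.62 to 11.6) of Batf3-/- cells, and C15 for 6.91% (3.73 to 11.5) and 4.38% (2.21 to 7.71). Of the DC cells 116 were closest to C0 and 67 to C2, whereas 89 of the 96 Monocytes cells (92.7%) were closest to C2. Macrophages cells were mostly closest to C2 (25 cells) or C15 (17 cells). Most of those 17 held only 828 to 1618 UMIs, and the part of depth was not tested. Cells of the other clusters, each taken out of its own cluster profile, returned to their own cluster in 72.8% (C1) to 98.9% (C17) of cases, C2 in 86.4% and C0 in 93.6%.

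The assignment used the genes of each cluster, so levels near those of the assigned cluster follow from it and are given as a description. Among those closest to C0, the Notch regulator Dtx1 stood at 176 CPM and at 229.8 in C0 itself, and the fatty acid receptor Ffar2 at 379 against 456. Among those closest to C1, Ccr7 stood at 949.6 CPM against 904 in C1, and among those closest to C3, the transcription factor Sox4 at 595 against 562. The genes of iron handling were above the matching cluster in every case given. Slc40a1 stood at 119.6 CPM against 0.481 in C0, 246 against 0.910 in C1, 70.5 against 1.27 in C2 and 105 against 0.516 in C3. Hmox1 stood at 322 against 5.24, 713 against 9.69, 285 against 27.5 and 388 against 6.42. These 2 genes were among those left out of the assignment. Summed C1q was 856 CPM in C11 cells closest to C0, where C0 stood at 2.49, and 3062 CPM in those closest to C2, where C2 stood at 13.2.

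**Figure D4:**
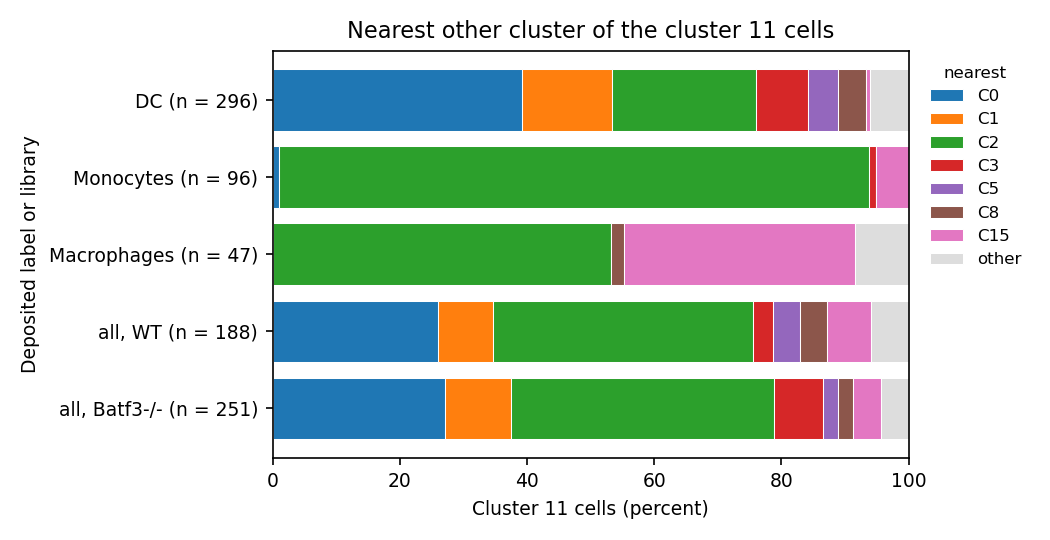
Share of C11 cells (percent, x axis) closest to each of the other clusters (colours), with a bar for each deposited label and each library, after the C11 genes were left out. C2 takes 41.0% of WT and 41.4% of Batf3-/- cells, 22.6% of DC cells and 92.7% of Monocytes cells, and C0 takes 39.2% of DC cells.

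C11 had the highest median count of 2 antibody tags. No background threshold was applied to the tag counts used here. The paper reports a sizeable background for every antibody, applied thresholds and excluded some antibodies of unclear binding. Whether the differences in tag counts given below lie above that background was not tested. The deposited tag table has 11 tags without antibody names, and a tag was matched to a gene only where each was the other's best correlate in both libraries, which held for tag 1 (Cd4) and tag 2 (Cd8a). The unnamed tag 6 had a median of 31 counts in WT and 27 in Batf3-/- C11 cells, against at most 24 (C9) in the other clusters of at least 50 cells in either library. The unnamed tag 9 had a median of 44 in each library, against at most 39 (C2) in the other WT clusters of that size and at most 42 (C5) in those of Batf3-/- cells. Per 1000 tag counts of the cell, tag 6 was still first at 56.7 against at most 51.6, whereas tag 9 was at 85.4 against 84.3 in C1 and was second of the 15 clusters ranked in the Batf3-/- library, behind C8. Within C11 the tag 6 median was 30 in DC, 26.5 in Monocytes and 24 in Macrophages cells, and 31 in the cells closest to C0, which itself stood at 23. Tag 1 (Cd4) had a median of 37, rank 4 of 20 clusters (rank 7 per 1000 tag counts), and tag 2 (Cd8a) a median of 43, rank 10 (rank 18). The study's panel includes antibodies to F4/80 and CD172a (Sirpa), but the order of its tags is not given in the sources used here, so tags 6 and 9 were not named. Across cells, tag 9 correlated best with Sirpa among the panel's genes in both libraries (r = 0.381 in WT and 0.140 in Batf3-/- cells), as tag 4 did in WT (r = 0.378), and tag 6 had no r above 0.114.

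**Figure D5:**
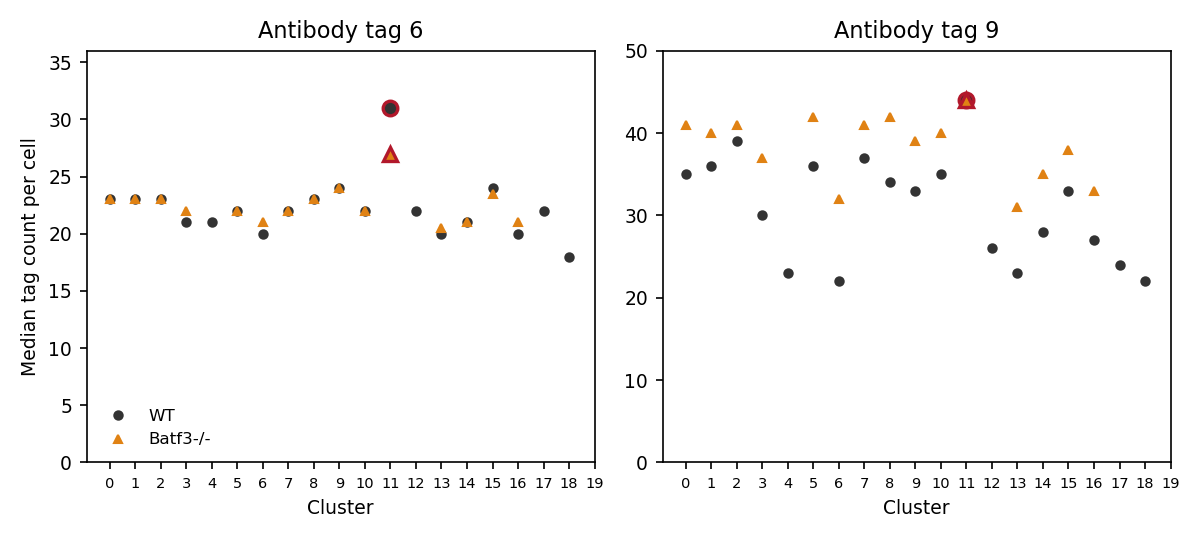
Median raw tag counts per cell, with no background threshold, of the unnamed tags 6 and 9, WT and Batf3-/- as separate points. Each cluster with at least 50 cells in the library is shown. C11 (red outline) is at 31 and 27 for tag 6 and at 44 in both libraries for tag 9, above the other clusters shown.

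Between genotypes few of the compared genes of C11 were 2-fold apart. Batf3, the deleted gene, stood at 165 CPM (295 UMIs) in WT and 1.95 CPM (5 UMIs) in Batf3-/- C11 cells, a log2 ratio of -6.40 (-8.03 to -5.16). A gene was called where the ratio was past 2-fold with an interval that left out 0. Of 5335 genes, 7 were higher in Batf3-/- cells (0.131%) and 27 lower (0.506%), 34 in all (0.637%), with a median log2 ratio of 0.00. In the macrophage list 0 of 14 compared genes were called, with a median of -0.40. C1qa had a log2 ratio of -0.42 (-0.51 to -0.33), Slc40a1 -0.42, Vcam1 -0.33, Hmox1 0.14 and Spic 0.26. Sirpa had -0.22, Ccr2 -0.46 and Cd14 -0.75 (-1.27 to -0.24). Without replicate libraries these differences cannot be told apart from the spread between pools.

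Apart from Batf3, the genes of lowest ratio at 50 CPM or more were globins and an interferon-induced chemokine. Below that level S100a9 had 80 UMIs in WT and 0 in Batf3-/- C11 cells. Hbb-bs, a globin chain of red cells, stood at 2788 CPM in WT and 136 in Batf3-/- cells, but 2 WT cells labelled DC held 5740 and 3407 of the 9422 globin UMIs of that library's C11. Those UMIs were 35.6% and 26.0% of all in the 2 cells. Without these cells Hbb-bs was at 77.2 CPM in WT, below the Batf3-/- level, and C2 stood at 4.95 and 10.1 CPM. Cxcl10, a chemokine that draws activated T cells, stood at 150.2 CPM in WT and 52.8 in Batf3-/- cells, a log2 ratio of -1.51 (-1.82 to -1.21). Of 6 compared genes of the cDC1 list 2 were called lower and 0 higher, beside 0.506% lower over all genes. These were Clec9a and Naaa, with ratios of -1.20 and -1.36. Cd81, a tetraspanin of the published cDC2b list, stood at 375 and 187 CPM. Hspb1, a small heat shock protein, had the highest ratio among genes of 50 CPM or more, at 50.8 CPM in WT and 102 in Batf3-/- cells, a log2 ratio of 1.00 (0.65 to 1.36). Ccrl2, Cd37, Celf4, Mtch2 and Kynu followed with ratios of 0.88, 0.72, 0.71, 0.68 and 0.67 and were not called.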

How the data were processed

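Sorted splenic cells of 1 WT and 1 Batf3-/- library were analysed, grouped by the deposited cluster numbers and by library. Reads had been mapped by the authors to GRCm38 with Cell Ranger and aggregated with a correction for sequencing depth; the authors kept cells of 500 to 5000 genes with at most 20% mitochondrial and 50% ribosomal UMIs, and clustered them in Seurat (3.0.5) at a resolution of 0.5 on 16 principal components. The deposited raw tables hold counts of UMIs per gene and cell, and tag counts per antibody and cell. The libraries held 122530055 (WT) and 114517073 (Batf3-/-) UMIs over 17751 genes. Normalized tables were not used.

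UMIs were summed per cluster and library and divided by all UMIs of that sum, per 1000000 (CPM), with exact Poisson 95% intervals. The interval of a ratio is exact and treats the UMIs of both sides as a binomial split, and shares carry Clopper-Pearson intervals. For the fold of a gene with 0 UMIs on 1 side, a floor of 3 counts was used. Calls used no floor, and a ratio with 0 on 1 side counted as past 2-fold. Cells were thinned to 1000 UMIs without replacement for shares, and 28 WT and 42 Batf3-/- cells were too shallow for it. Doublets were called with Scrublet in Scanpy at an expected rate of 0.10 and were kept; the caller marked 541 WT and 244 Batf3-/- cells. Python 3.11.15, NumPy 2.4.6, SciPy 1.17.1, pandas 2.3.3 and Scanpy 1.11.5 were used, and the ratios were tested on simulated data.

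Named genes were the genes highest in C11, the 12 highest and 12 lowest ratios called against C2 and against C15, the 6 highest and 6 lowest Batf3-/- over WT ratios at 50 CPM or more, and genes of the lists. Other genes were named after their values were seen, among them Cd81, Clec9a and Naaa. A gene that met these rules is not reported here. The members and lists were chosen with earlier results of these data known. Alternatives were other weights and filters, other totals, each library alone, doublets, labelled cells or globin-rich cells left out, other depths of thinning and other denominators.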

Additional observations from a re-analysis of the deposited data

Results flagged for a closer look

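In all, 3 genes passed 2-fold in both libraries but in opposite directions, with a log2 ratio of C11 over C15 past 1 in size and of one sign in WT and the other in Batf3-/- cells, and the difference was not tested. Cd8a, a chain of the CD8 co-receptor, had -1.42 in WT and 2.86 in Batf3-/- cells. Xcr1, the chemokine receptor of cDC1, had -3.26 and 1.84. Rsad2, an interferon-induced gene, had 1.11 and -1.01. C15 held 145 WT and 52 Batf3-/- cells, with 1146370 and 436038 UMIs in all. At ratios of this size, its Batf3-/- levels of Cd8a and Xcr1 rest on very few UMIs. In C11, Xcr1 had 24 UMIs in WT and 21 in Batf3-/- cells. Of the C15 cells 13 were marked as doublets, 12 in WT and 1 in Batf3-/-.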

How the results depend on the processing

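No paired analysis was possible because each genotype is 1 library. Some directions turned. In C11 cells labelled DC, set against all C2 cells, the median of the published cDC2b list went from 0.37 to -0.40. That of dendritic cell identity genes went from -0.11 to 0.15. Hbb-bs was higher in Batf3-/- than WT cells without 2 globin-rich cells. C11 was a larger share of WT than of Batf3-/- cells when set against C2 and C11 alone. Of the count-type and share results, 25 alternatives stayed near the reported value and 20 moved. Near was a wide band. With each cell weighted alike, 137 in place of 101 genes over C2 and 579 in place of 438 over C15 were counted as near. For C11 over C2 the 101 called genes became 44 at a minimum of 50 CPM, 339 with no CPM filter and 153 in the WT library alone. They became 160 with C11 cells labelled DC set against all C2 cells. For C11 over C15 the 438 became 245 at 50 CPM and 783 in the Batf3-/- library alone. For Batf3-/- over WT the 34 became 53 with each cell weighted alike, 13 at 50 CPM, 208 with no CPM filter and 53 in cells labelled DC. The 18 genes highest in C11 became 29 at 20 CPM, 28 in WT alone and 10 in cells labelled DC, and all 10 were among the 18. Genes lost in DC cells included Acp2, Fam213b, Lyz1, Ms4a7, Nr1h3, Spic and Trf. The Cd14 share of 2.55% became 12.5% at 5000 UMIs and 19.4% without thinning, as the construction of the measure requires. The WT share of cells in C11 became 2.17% without the cDC1 clusters (Batf3-/- 2.22%), 16.6% of C2 and C11 alone, and 1.05% among DC cells. The Batf3-/- share became 14.2% and 1.56% under the last 2. In the macrophage list the count against C2 was 12 of 13 in DC cells, with a median of 3.80, and 13 of 14 without Macrophages cells, with 3.83. With DC cells of C11 set against all C2 cells, the published cDC2b list gave 10 higher and 11 lower of 41. The median of the textbook cDC2b list went from -0.02 to -1.11. The cause of these changes was not tested. With 439 cells, genes under about 20 UMIs per library could not be compared, and the Batf3-/- cells of C15 limit every ratio over C15.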

Other observations

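A few other lists described C11. The T, NK and innate lymphoid list summed to 21.4 CPM, the B and plasma cell list to 73.6 CPM and the plasmacytoid dendritic cell list to 322 CPM in C11. The neutrophil list summed to 73.8 CPM, against 16644 CPM in C15. The cDC1 list summed to 684 CPM in WT and 441 CPM in Batf3-/- C11 cells, against 398 and 315 in C2 and 1760.3 and 443 in C15. Of its 6 genes compared with C2, 2 were called higher in C11 and 0 lower, beside 1.76% higher over all genes. These were Cadm1 and Cd8a, at log2 ratios of 1.78 and 1.68, and 1.94 and 1.91. Cells in S or G2M phase by the deposited calls were 43 of the 439 (9.79%), beside 9.10% in C2 and 12.7% in C15.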
